A study of Mus musculus with 120 samples.

Results

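A set of 9 genes known for their expression in the atria of the heart was followed across 48 mouse heart libraries. They are the atrial myosin light chain genes Myl7 and Myl4, the natriuretic peptide genes Nppa and Nppb, the secreted factor genes Bmp10 and Dkk3, the potassium channel genes Kcnj3 and Kcnj5, and Fgf12. These 9 of the 53656 genes in the heart table were chosen by symbol and not by a threshold, with earlier results of these data known, and all 9 passed the filter on low counts that left 15723 genes. The hearts came from 4 mutant strains on the C57BL/6EiJ (Nnt+/+) background, with 12 hearts a strain. ANT1 mice lack the heart and muscle adenine nucleotide translocator (Slc25a4-/-). ND5 mice carry m.12352C>T and ND6 mice m.13997G>A, both missense changes in complex I subunits encoded by mitochondrial DNA (mtDNA). CO1 mice carry m.6589T>C, a missense change in an mtDNA-encoded subunit of complex IV. In each strain 6 mice were exercised and 6 were non-exercised. The exercised mice started at 16 weeks of age and ran at 50% of their maximal capacity for 45 min on alternate days over 8 weeks, the non-exercised mice were handled only, and all mice were taken 6 days after the last session. Every mouse, of either arm, also went through exercise testing before and after that period. B6 control hearts are not analysed here, and strains are therefore set only against other mutants.

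Atrial and ventricular muscle cells use different light chain genes for the same places on the myosin head, and adult mouse ventricle normally holds little of the atrial pair. Atrial muscle stores atrial natriuretic peptide, from Nppa, in granules and releases it under stretch. Ventricular muscle also makes natriuretic peptides, mainly from Nppb, when it is loaded or diseased, so a natriuretic peptide transcript alone does not name the chamber.

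Before the levels, the start sites of 4 members are shown, because Myl7 divides the hearts below and the other 3 left it in part of them. The windows of 300 bases come from RefSeq on GRCm38.p6, the assembly also known as mm10. An entry was found for 8 of the 9 genes, all but Dkk3. Each reads 5′ to 3′ on the strand of its gene. Capitals mark matches, on either strand, to 4 motifs. These are AGGTGT (bound by T-box factors such as TBX5), AGATAA (bound by GATA factors), CATTCC (bound by TEAD factors) and the CArG box of the serum response factor.
Myl7, chr11:5898733-5899032 minus strand: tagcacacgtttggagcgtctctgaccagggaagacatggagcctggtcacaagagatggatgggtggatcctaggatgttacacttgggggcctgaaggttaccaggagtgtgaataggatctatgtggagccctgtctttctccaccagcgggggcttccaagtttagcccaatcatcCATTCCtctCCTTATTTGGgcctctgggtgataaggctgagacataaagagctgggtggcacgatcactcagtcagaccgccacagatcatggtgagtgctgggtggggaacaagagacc
Nppa, chr4:148000472-148000771 plus strand: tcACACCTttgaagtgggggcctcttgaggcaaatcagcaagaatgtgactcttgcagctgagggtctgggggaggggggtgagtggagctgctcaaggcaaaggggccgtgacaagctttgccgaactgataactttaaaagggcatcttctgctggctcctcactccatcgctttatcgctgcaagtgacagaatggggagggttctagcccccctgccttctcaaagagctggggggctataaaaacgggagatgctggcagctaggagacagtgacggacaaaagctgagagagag
Nppb, chr4:147985650-147985949 plus strand: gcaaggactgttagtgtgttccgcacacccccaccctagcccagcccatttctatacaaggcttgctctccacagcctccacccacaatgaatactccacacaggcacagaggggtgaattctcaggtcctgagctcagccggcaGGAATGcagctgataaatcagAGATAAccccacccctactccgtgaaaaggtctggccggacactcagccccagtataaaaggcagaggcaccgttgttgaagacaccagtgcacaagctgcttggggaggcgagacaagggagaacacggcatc
Bmp10, chr6:87428744-87429043 plus strand: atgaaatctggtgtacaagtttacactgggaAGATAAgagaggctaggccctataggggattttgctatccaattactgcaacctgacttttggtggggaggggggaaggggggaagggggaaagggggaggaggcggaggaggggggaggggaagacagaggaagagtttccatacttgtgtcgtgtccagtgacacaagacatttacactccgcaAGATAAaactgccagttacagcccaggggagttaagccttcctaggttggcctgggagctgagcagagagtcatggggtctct
The Myl7 window held CATTCC at -70 and a CArG box at -61, counted from the start site. Nppa held AGGTGT on the opposite strand at -248, and Nppb held AGATAA at -84 and CATTCC on the opposite strand at -105. Bmp10 held AGATAA at -219 and at -33. Kcnj3 held AGGTGT on the opposite strand at -38, while the windows of Myl4 and Kcnj5 held 0 matches. Fgf12 had several windows. Its window chr16:28753194-28753493 held AGGTGT on the opposite strand at 43, past the start site. Its window chr16:28446026-28446325 held AGGTGT on the opposite strand at -176 and CATTCC at -127, and its other windows held 0 matches. Among 32544 distinct windows of RefSeq start sites, 13.8% held AGGTGT, 11.2% held AGATAA, 14.6% held CATTCC and 1.64% held a CArG box. A match is a run of letters and not a measured binding site.

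The heart libraries held 19.65 to 26.51 M expected counts, and 0 of 120 pairs of libraries within a group were identical. The labels do not say that replicates shared a litter or a day, and by their mouse codes each heart is from a separate mouse. Slc25a4 stood at 1.89 to 6.13 CPM (counts relative to the TMM-scaled library size) in ANT1 hearts, and at 471 to 3864 CPM in ND5, 1919 to 3723 CPM in ND6 and 2835 to 3892 CPM in CO1 hearts. Muscle of the heart was present in every library by Myh6, the main cardiac myosin heavy chain of adult mice, which ranged over 2829 to 31293 CPM. The ventricular light chain gene Myl2 was nearly missing from a pair of libraries, at 10.3 CPM in non-exercised ND5 replicate 5 and 11.4 CPM in non-exercised ND6 replicate 1. The first of these also had the highest Myh11, a smooth muscle gene, at 2284 CPM, and the lowest Slc25a4 of the mtDNA strains. Its mouse code also occurs on a soleus library that is labelled exercised, so the ND5 minus CO1 calls of the members and the counts of the other lists are also given without it.

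Myl7, the regulatory light chain of atrial myosin (chr11:5896637-5898782, minus strand), did not vary smoothly among hearts. Sorted by log2 CPM (with a prior count of 2), the 48 values left 1 wide empty stretch, between 7.08 and 31.7 CPM, a gap of 2.15 log2 units. The next widest gap was 1.42. Below it lay 22 hearts, with 0.07 to 2.84 log2 CPM, and above it 26 hearts, with 4.99 to 11.66. The library just inside the upper side was non-exercised CO1 replicate 1 at 31.7 CPM, and the one just outside it was non-exercised ANT1 replicate 4 at 7.08 CPM. The strains filled both sides unequally. Above the gap were 6 of 12 ANT1, 8 of 12 ND5, 10 of 12 ND6 and 2 of 12 CO1 hearts. By arm, 14 of 24 exercised and 12 of 24 non-exercised hearts lay above it. The ND6 hearts divided as 6 of 6 exercised and 4 of 6 non-exercised, and each other strain had equal numbers in both arms. The same 26 hearts lay above the widest gap when DESeq2 size factors or the deposited FPKM values were used. The summed CPM of 4 ventricular genes, which include Myl2, ran from 39.8 to 9396 above the gap and from 9168 to 13150 below it, and its part in the division was not tested. In bulk tissue, fewer atrial cells and less Myl7 RNA per cell cannot be told apart, and this holds for all values below.

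**Figure D1:**
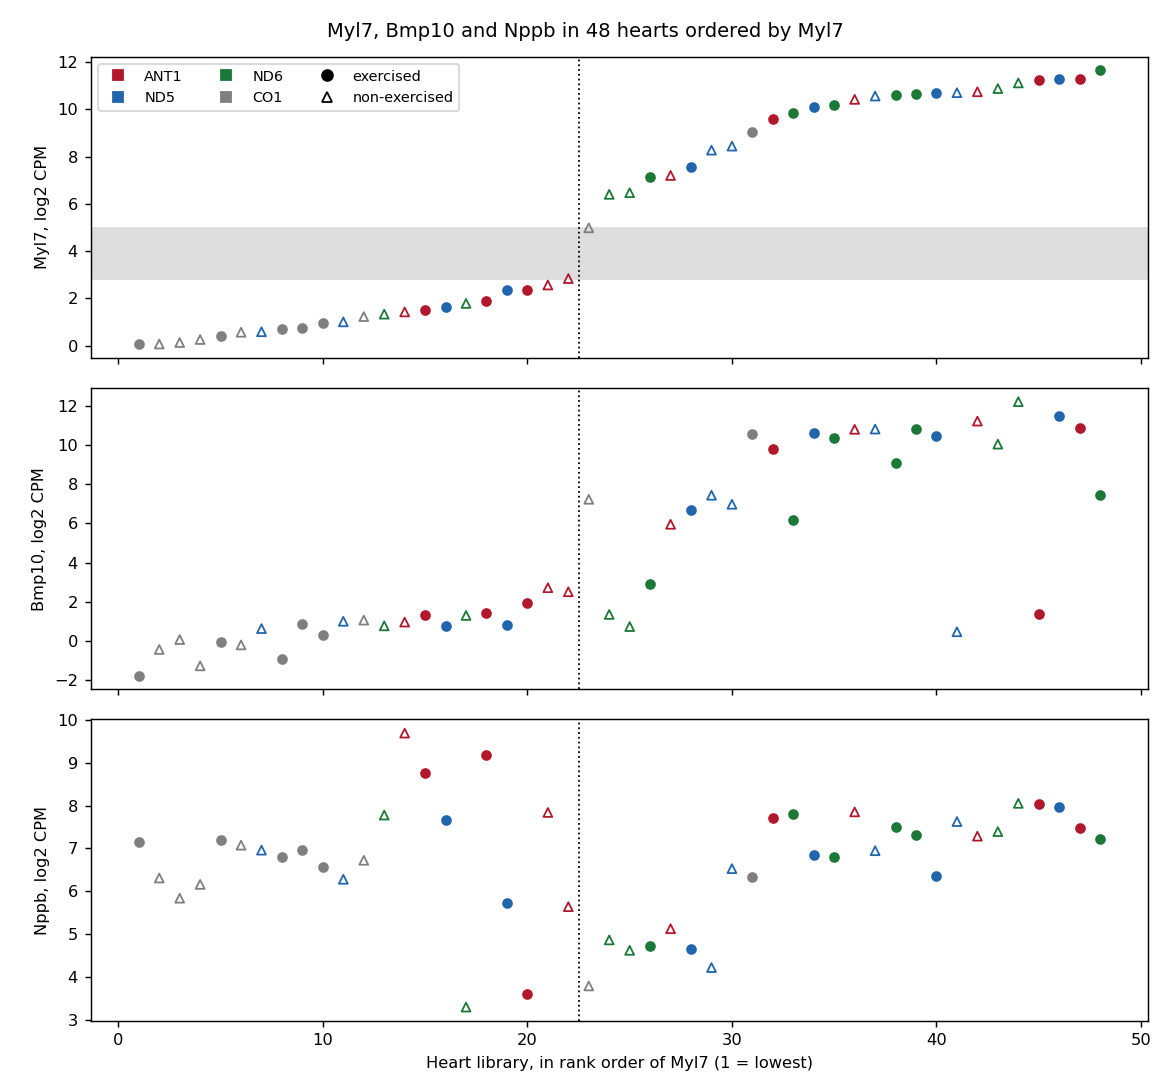
Log2 CPM of Myl7 (top), Bmp10 (middle) and Nppb (bottom) in 48 hearts, all in the rank order of Myl7, with 1 point per library, colour for strain and shape for arm. The grey band is the empty stretch of Myl7 and the dotted line divides the 22 hearts below it from the 26 above. Bmp10 returns to the low level in some hearts right of the line, and Nppb overlaps between both sides.

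Within all groups but exercised ND6, Myl7 had values on both sides of the gap. In exercised ANT1 hearts it ranged from 2.79 to 2520.4 CPM with a median of 383, and in non-exercised ones from 2.61 to 1716 with a median of 77.3. Exercised ND5 hearts ran from 3.07 to 2490.2 CPM (median 640.3) and non-exercised ones from 1.42 to 1671 (median 329). Exercised ND6 hearts, the only group with no value below the gap, ran from 140.1 to 3230.0 CPM (median 1359.7), and non-exercised ND6 hearts from 2.44 to 2223 (median 86.7). In CO1 the exercised hearts had 0.961 to 530.1 CPM (median 1.57) and the non-exercised 0.966 to 31.7 (median 1.26). So 1 heart in each CO1 arm stood far above the other 5. Exercised ND6 and non-exercised CO1 hearts did not overlap, and every other pair of groups did.

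Hearts below the gap were not at a common floor. Myl7 there ran from 2.61 to 7.08 CPM in 6 ANT1 hearts, from 1.42 to 4.97 in 4 ND5 hearts, was 2.44 and 3.37 in 2 ND6 hearts, and ran from 0.961 to 2.26 in 10 CO1 hearts. These hearts were picked by Myl7 itself, so the values are a description with no test.

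Myl4, the essential light chain of atrial myosin (chr11:104550663-104595753, plus strand), repeated the division of Myl7. Its own widest gap, 2.86 log2 units, set apart the same 26 hearts. It ran from 4.08 to 4363 CPM in ANT1 (median 171.5), 2.37 to 4597 in ND5 (median 701.2), 4.54 to 5390.4 in ND6 (median 2014) and 1.11 to 1232 in CO1 hearts (median 3.37). Per length, on the deposited FPKM scale, Myl4 was between 0.779 and 1.46 times Myl7 in the 26 hearts above the gap, with a median of 0.980. The highest of these ratios exceeded the lowest by 1.87 times, while Myl7 itself ran from 90.7 to 10845 FPKM among these hearts.

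**Figure D2:**
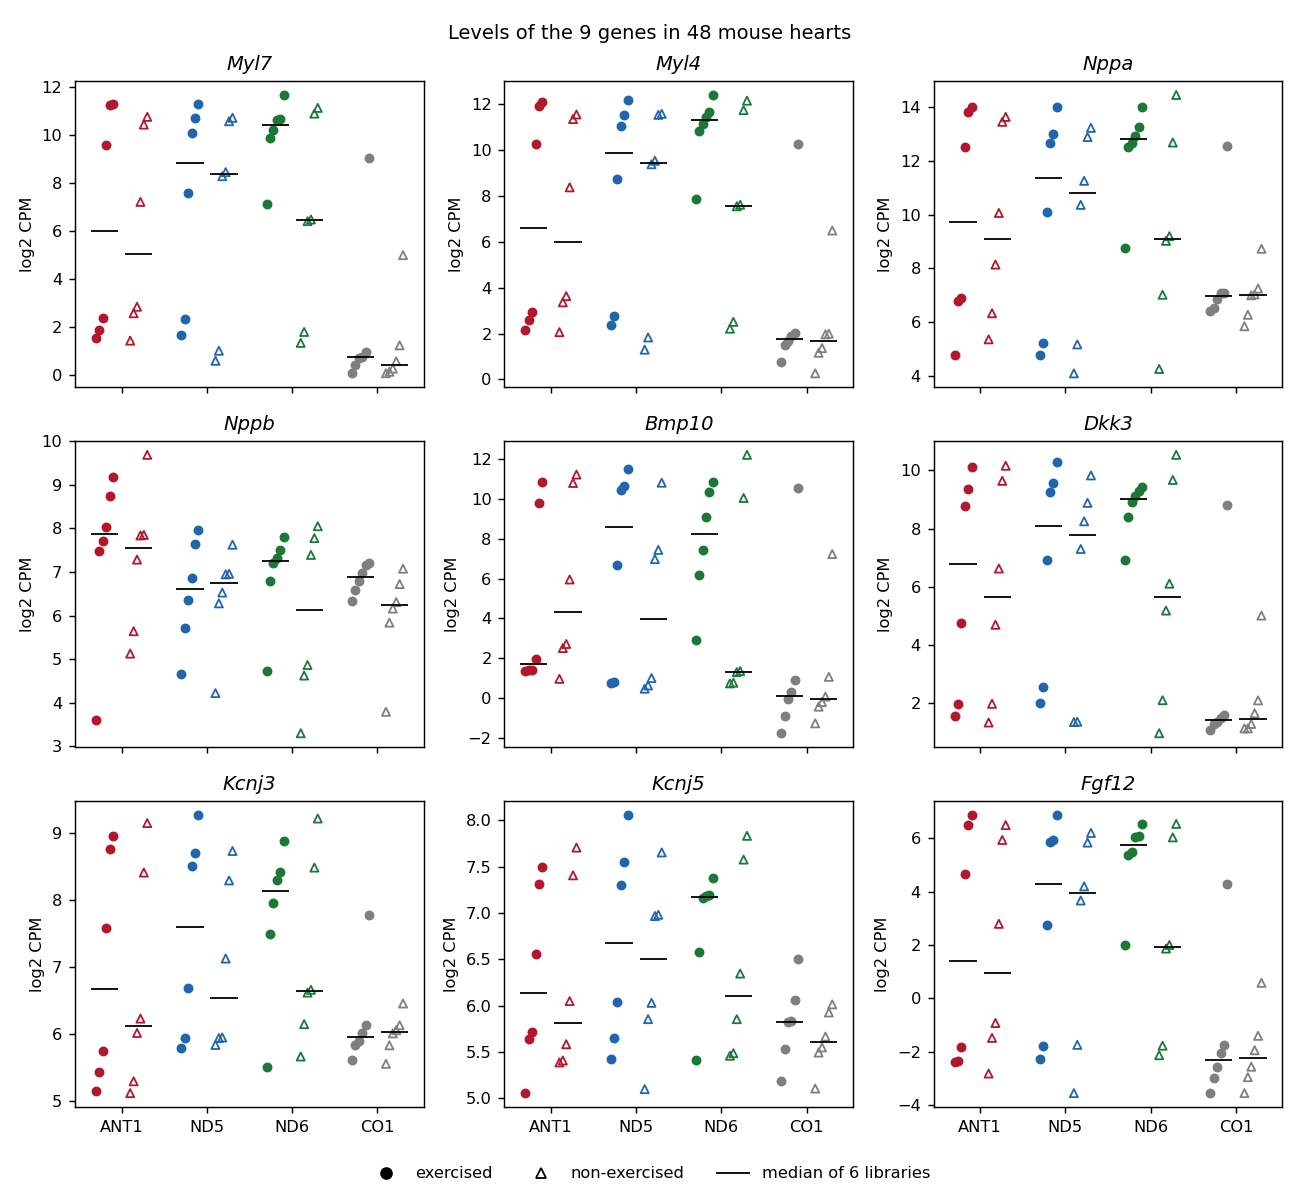
Log2 CPM of each of the 9 genes in 48 hearts, by strain (12 hearts each), with exercised hearts as filled circles, non-exercised hearts as open triangles and a line at the median of 6. Most genes fall into a high and a low set within ANT1, ND5 and ND6, while in CO1 a single heart per arm stands apart. Nppb shows no such division.

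Nppa, which encodes atrial natriuretic peptide (chr4:148000722-148002079, plus strand), was the most abundant member per length by median above the Myl7 gap. There it had 670.8 to 48547 FPKM, and 1.71 to 7.40 times the FPKM of Myl7. Exercised ANT1 hearts had 27.4 to 16330 CPM (median 3003) and non-exercised ones 41.1 to 12751 (median 677). Exercised ND5 hearts had 27.3 to 16530 CPM (median 3755) and non-exercised ones 17.04 to 9616 (median 1886). Its highest value, 22442 CPM, was in non-exercised ND6 replicate 1, the library nearly without Myl2. Every heart above the Myl7 gap exceeded every heart below it in Nppa, as it did in Dkk3 and Fgf12. Below the gap its median was 133.5 FPKM, under the 216.8 FPKM of Nppb. Nppa there kept a level of its own, 27.4 to 283 CPM in ANT1, 17.04 to 37.8 in ND5, 19.1 and 129.9 in ND6, and 57.6 to 152.5 in CO1 hearts.

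Nppb, which encodes brain natriuretic peptide and lies beside Nppa (chr4:147985788-147987205, plus strand), did not share the division. Of the 26 hearts above the Myl7 gap, 0 exceeded all 22 below it. Nppb ran from 13.8 to 265 CPM above the gap and from 9.76 to 824.9 below it. The highest values were those of ANT1 hearts below the gap, where it ran from 12.0 to 824.9 CPM, against 57.1 to 146.8 CPM in the 10 CO1 hearts there. Exercised ANT1 hearts as a whole had 12.0 to 578 CPM (median 234.8) and non-exercised ones 34.9 to 824.9 (median 192.3). In CO1 the exercised hearts had 80.9 to 146.8 CPM (median 117.9) and the non-exercised 13.8 to 134.7 (median 75.3). Across all 48 hearts the rank correlation of Nppb with Myl7 was 0.272, the lowest of the 8 other members.

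Ventricular load genes were read beside Nppb. In the non-exercised ANT1 heart with the highest Nppb, replicate 5, Ankrd1 stood at 3762 CPM, Acta1, the skeletal alpha-actin gene, at 1139.5 CPM and Myh7, the slow myosin heavy chain gene, at 1152 CPM. Of these values, those of Ankrd1 and Myh7 were the highest of the 48 hearts and that of Acta1 was second to exercised ANT1 replicate 5, which had 1556 CPM and the second highest Nppb, 578 CPM. At the other end of the ANT1 hearts, exercised ANT1 replicate 2 had 12.0 CPM of Nppb with 526.8 CPM of Ankrd1 and 37.6 CPM of Myh7. The lowest Nppb of the 48 hearts, 9.76 CPM, was in a non-exercised ND6 heart. The ANT1 hearts named here were picked by their Nppb values, and a link of Nppb with these genes across hearts was not tested.

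Bmp10, a bone morphogenetic protein that adult mice make chiefly in the right atrium (chr6:87428994-87437677, plus strand), left the other members in some hearts. It reached 4747 CPM above the Myl7 gap, but 5 hearts there held only 1.30 to 7.37 CPM, close to the 0.209 to 6.50 CPM of the hearts below it. These were non-exercised ND5 replicate 6 (1.30), non-exercised ND6 replicates 5 (1.58) and 2 (2.48), exercised ANT1 replicate 4 (2.56) and exercised ND6 replicate 6 (7.37). In the first and the fourth of them Myl7 was nonetheless high, at 1671 and 2417 CPM. Taken per Myl7 count, Bmp10 was below 0.1 in 7 of the 26 hearts, with values from 0.000781 to 0.0788, and at 0.353 to 4.75 in the other 19. The 7 hearts were 1 ANT1, 1 ND5, 5 ND6 and 0 CO1 hearts, 4 exercised and 3 non-exercised. The limit of 0.1 was chosen after the values were seen.

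Dkk3, a secreted glycoprotein of the Dickkopf family (chr7:112116017-112159057, minus strand), followed Myl7 closely. It ran from 2.44 to 1141 CPM in ANT1 (median 62.9), 2.46 to 1247 in ND5 (median 230.5), 1.87 to 1479.8 in ND6 (median 409.7) and 2.01 to 451 in CO1 hearts (median 2.59). The values above the Myl7 gap began at 32.1 CPM and those below it ended at 27.2 CPM. Its own widest gap, 2.12 log2 units, lay lower and left 28 hearts above it, 26 of them above the Myl7 gap. The ANT1 hearts at 25.8 and 27.2 CPM, which were below the Myl7 gap, fell on its upper side. Fgf12, an intracellular fibroblast growth factor homologue that binds voltage-gated sodium channels (chr16:28160098-28753068, minus strand), was the scarcest member per length. It had 0.480 to 51.1 FPKM above the gap and 0 to 0.12 FPKM below it. Its counts set apart the same 26 hearts at their own widest gap, with 1.41 to 117 CPM above and 0 to 0.443 CPM below.

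Kcnj3 (chr2:55435970-55598145, plus strand) and Kcnj5 (chr9:32314707-32344350, minus strand) encode the subunits of the acetylcholine-gated potassium channel that slows the heart under vagal drive. Both were present in every heart and had the narrowest ranges of the members. Kcnj3 ran from 45.5 to 618 CPM above the Myl7 gap and from 34.8 to 98.3 CPM below it, and 21 of 26 hearts above the gap exceeded all those below. Kcnj5 ran from 34.2 to 267 CPM above and from 33.2 to 81.3 CPM below, and 19 of 26 exceeded all those below. Of other genes of that pathway, Chrm2, the muscarinic receptor, ran from 38.7 to 288 CPM above and 31.9 to 125.9 CPM below. Rgs6, which ends the G protein signal, ran from 9.38 to 96.0 CPM above and 2.41 to 19.2 CPM below. The other tested genes of this list were Rgs4, Adora1 and Gnb5. Rgs4 had a lower median above the gap (11.8 CPM) than below it (17.8 CPM). Medians above and below were 10.3 and 9.91 CPM for Adora1, and 19.2 and 18.9 CPM for Gnb5. Spearman's rho with Myl7 over all hearts was 0.724 for Chrm2, 0.756 for Rgs6, 0.356 for Gnb5, -0.18 for Adora1 and -0.62 for Rgs4. Kcnj6 and Kcnj9, the related channel genes of the brain, did not exceed 0.156 CPM in any heart. Of the 5 tested genes of this list, 0 were called in any comparison with CO1 hearts. At an unadjusted p under 0.05 there were 0 in ANT1, 2 in ND5 and 2 in ND6. The share of all genes under that unadjusted threshold is not given here.

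Correlations between members were computed on log2 CPM within each side of the gap and are descriptions with no test, since the points share libraries and scaling and the genes were picked as atrial. Above the gap (n = 26), Pearson's r of Myl7 was 0.997 with Myl4, 0.991 with Fgf12, 0.967 with Nppa, 0.954 with Dkk3, 0.902 with Nppb, 0.901 with Kcnj3, 0.864 with Kcnj5 and 0.499 with Bmp10. All 36 pairs had an r above 0 there, from 0.415 (Nppb with Bmp10) to 0.997, and 18 were over 0.9. Below the gap (n = 22), 21 of 36 pairs had an r below 0. Myl7 kept an r of 0.928 with Myl4 and 0.861 with Bmp10, but had -0.37 with Nppa and -0.11 with Nppb. Nppa and Nppb, neighbours on chromosome 4, had an r of 0.685 there. The lowest r of any pair was that of Nppb with Kcnj3, -0.77. Spearman's rho was 0.987 for Myl7 with Myl4 and 0.530 for Myl7 with Bmp10 above the gap, and -0.73 for Nppb with Kcnj3 below it. Without the 2 hearts farthest from the median of the first gene of each pair, r was 0.479 for Myl7 with Bmp10 above the gap, and 0.898 for Myl7 with Myl4 and -0.86 for Nppb with Kcnj3 below it.

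**Figure D3:**
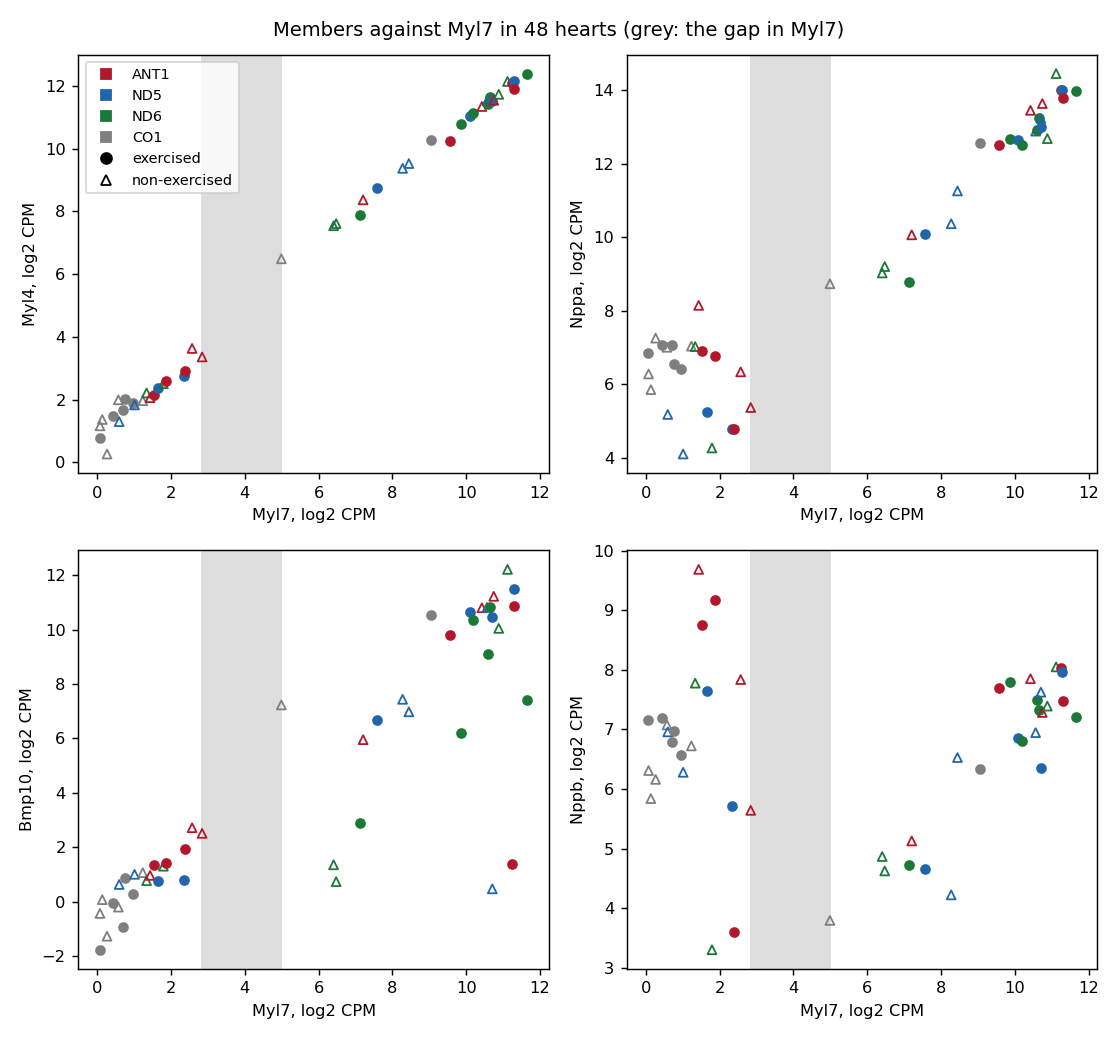
Log2 CPM of Myl4, Nppa, Bmp10 and Nppb against log2 CPM of Myl7, 1 point per heart, with the empty stretch of Myl7 in grey. Myl4 lies on a line through both sets, Nppa turns flat below the gap, Bmp10 shows hearts at its low level beside high Myl7, and Nppb is highest in ANT1 hearts left of the gap.

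**Figure D4:**
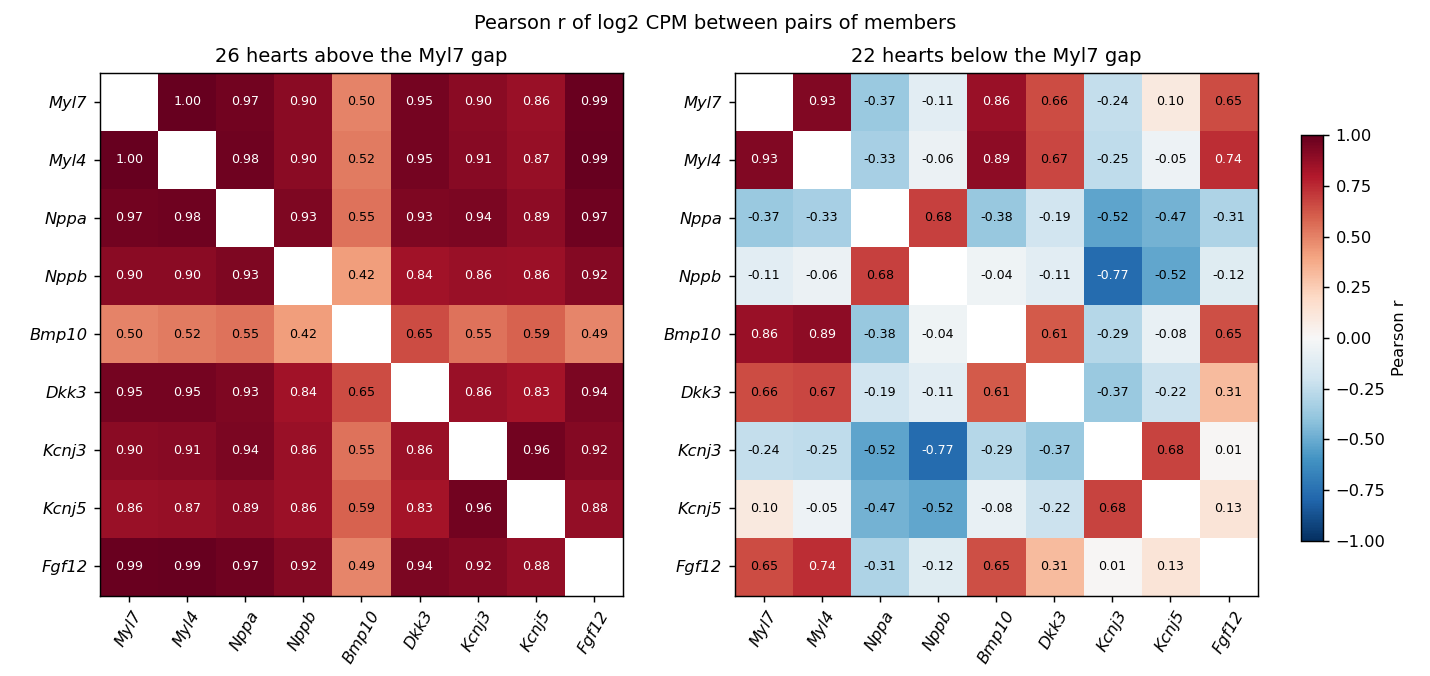
Pearson's r between members on log2 CPM, in the 26 hearts above the Myl7 gap (left) and the 22 below it (right), on a colour scale from -1 to 1. All pairs on the left are above 0, whereas on the right Nppa, Nppb and the potassium channel genes leave the light chains.

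Over all 48 hearts, 11221 genes whose mean log2 CPM reached 1 were ranked by Spearman's rho with Myl7. The 10 non-members most like it were Sln (0.987), Mybphl (0.983), Gltp (0.945), Stard10 (0.944), Cacna2d3 (0.941), Rxfp1 (0.932), Lgals3 (0.930), Cilp2 (0.929), Tmem163 (0.928) and Olfm1 (0.927). Sln, the sarcoplasmic reticulum peptide sarcolipin, had 26.1 to 1317 CPM above the gap and 0 to 2.84 CPM below it. Mybphl, a myosin-binding protein gene, had 8.98 to 581 CPM above and 0.127 to 1.45 below. Among the genes with the lowest rho were Shroom4 (-0.92), Ptprg (-0.90), Fmnl1 (-0.89) and Rgs5 (-0.88). Rgs5 had 103.7 to 553 CPM above the gap and 390.1 to 659 CPM below it. Among the members the rho was 0.993 for Myl4, 0.958 for Fgf12, 0.950 for Dkk3, 0.860 for Nppa, 0.850 for Bmp10, 0.807 for Kcnj3 and 0.723 for Kcnj5. These values rest on the division of the hearts as well as on variation within each side.

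The strains were compared in 1 fit over all 48 hearts, which asks whether the mean levels of these genes differ between the hearts of the strains. The clearest differences were those from CO1 hearts, where all but 2 members were called higher in ND5 and in ND6. In ND5 minus CO1, 7 of 9 members were called at an adjusted p under 0.05 by the quasi-likelihood test of edgeR, all higher in ND5, against a background of 22.2% of all genes tested. Myl7 had a median of 329 CPM (1.42 to 2490.2) in ND5 and 1.47 CPM (0.961 to 530.1) in CO1 hearts (n = 12 each), with a log2 difference of 4.99 ± 1.43 (SE, adjusted p = 0.0163). Nppa, with a log2 difference of 3.36 ± 1.14, had an adjusted p of 0.0342. The others called were Myl4 (4.59), Dkk3 (3.94), Kcnj3 (1.53), Kcnj5 (1.07) and Fgf12 (4.96). Nppb had a log2 difference of 0.25 ± 0.49 (adjusted p = 0.712) and Bmp10 one of 2.88 ± 1.57 (adjusted p = 0.156), and neither passed. The median difference was 3.36 over the members and 0.05 over all genes tested. Without non-exercised ND5 replicate 5, Nppa and Kcnj3 were no longer called (adjusted p = 0.0627 and 0.0561), with log2 differences of 3.41 and 1.59, and the other 5 stayed called. Over all genes tested the calls were then 873 against 3492.

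In ND6 minus CO1 the same 7 members were called, again all higher, against a background of 17.1%. Myl7 had a median of 1049.0 CPM (2.44 to 3230.0) in ND6 hearts (n = 12), against the CO1 values above, with a log2 difference of 5.40 ± 1.45 (adjusted p = 0.0141). The others called were Myl4 (4.99), Nppa (3.89), Dkk3 (4.16), Kcnj3 (1.66), Kcnj5 (1.08) and Fgf12 (5.17). Nppb (0.45, adjusted p = 0.505) and Bmp10 (3.31, adjusted p = 0.124) did not pass. Without non-exercised ND6 replicate 1, the heart nearly without Myl2, 3 members were called, Myl7, Myl4 and Fgf12, and over all genes tested the calls were 1159 against 2681. Both comparisons share the CO1 hearts, so their overlap is not a second finding.

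In ANT1 minus CO1, 3 of 9 members were called, all higher in ANT1, against a background of 6.23%. They were Myl7 (log2 difference 4.91 ± 1.42, adjusted p = 0.0309), Dkk3 (3.88, adjusted p = 0.0420) and Fgf12 (4.93 ± 1.29, adjusted p = 0.0164). Myl4 (4.38, adjusted p = 0.0516) and Nppa (3.59, adjusted p = 0.0518) lay just past the threshold. Nppb had a log2 difference of 1.49 ± 0.50 (adjusted p = 0.0634), the largest of its differences from CO1. Of 8 tested genes for natriuretic peptide processing and receptors, Npr2, the receptor of C-type natriuretic peptide, was higher (0.20, adjusted p = 0.0271) and Pcsk6, a proprotein convertase gene, lower (-0.30, adjusted p = 0.0195). Of other lists, 4 of 10 further atrial genes, 1 of 6 sinoatrial node genes and 1 of 9 tested ventricular stress genes were higher in ANT1, the last being Ankrd1 (1.10, adjusted p = 0.0334). On the ventricular, adipocyte, red blood cell, fibroblast matrix, smooth muscle, epicardium and lymphocyte lists 0 genes were called.

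**Figure D5:**
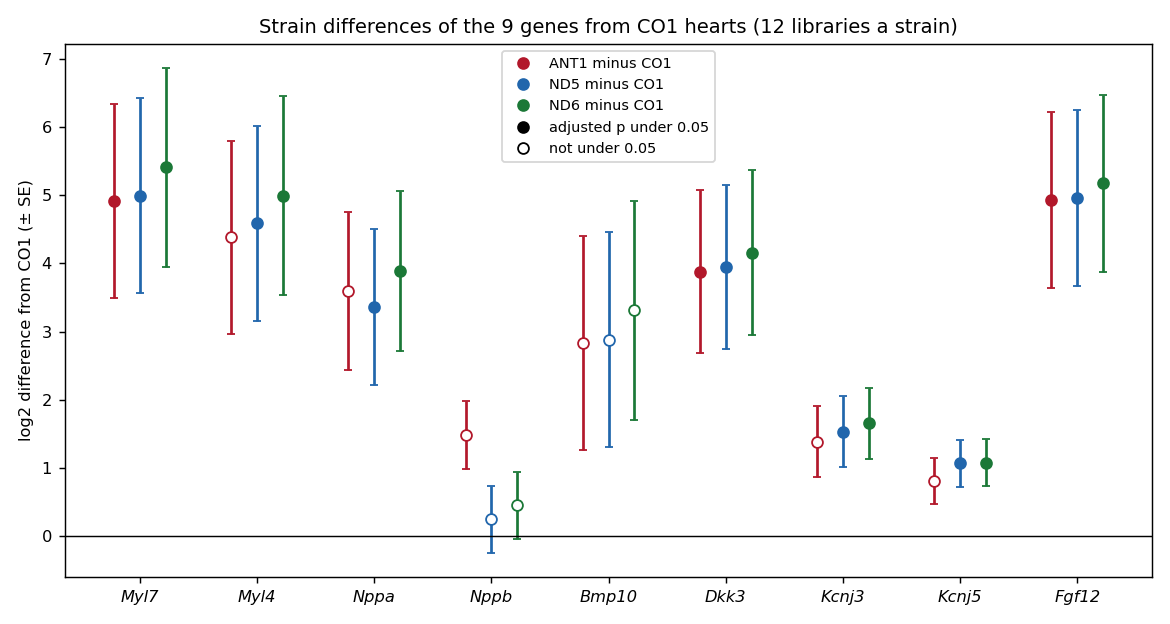
Log2 difference from CO1 hearts for each of the 9 genes in ANT1, ND5 and ND6 hearts (12 libraries a strain), with standard errors from the edgeR fit. Filled points had an adjusted p under 0.05. The light chains, Dkk3 and Fgf12 lie near 4 to 5 in all 3 strains with wide errors, and Nppb lies at 0.25 in ND5 and 0.45 in ND6.

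The size of these differences depended on single CO1 hearts. Without exercised CO1 replicate 2, the Myl7 difference was 7.86 for ANT1, 7.93 for ND5 and 8.35 for ND6, and Bmp10 was called in all 3 comparisons with 6.88, 6.91 and 7.36. Without non-exercised CO1 replicate 1, Bmp10 was called in ND5 (5.26) and ND6 (5.69). With the Myl7 level as a covariate, 0 of the other 8 members were called in ND5 minus CO1 and in ND6 minus CO1, and over all genes tested the calls were 0 and 1, against 3492 and 2681. In ANT1 minus CO1 that fit called 2 members, Nppb higher (log2 difference 1.56, adjusted p = 0.0428) and Myl4 lower (-0.38, adjusted p = 0.0174). Its calls over all genes in ANT1 minus CO1 are not given here, so these 2 calls have no background beside them. Myl7 is itself a member whose level differed between these strains, and its rho with Myl4 was 0.993. Adjusting for it takes out much of the members' difference by design, so that fit does not show what the differences rest on. Limma voom with sample weights called 0 members in ANT1 minus CO1 and in ND5 minus CO1, and 8 in ND6 minus CO1. The calls of voom over all genes are not given for these comparisons, so its counts have no background beside them.

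Other lists moved with the same comparisons. Of 10 further atrial genes, 9 were higher and 1 lower in ND5 than in CO1, and the same counts held for ND6. Among the higher were Sln (4.52 and 4.81 on the log2 scale in ND5 and ND6) and Pam (1.90 and 2.18), the enzyme that amidates peptides in atrial granules. The lower one was Kcna5 (-0.70 and -0.71), an atrial potassium channel gene in humans. Of 9 tested genes for cardiac transcription factors, 1 was higher in ND5, and 2 were higher and 1 lower in ND6. Tbx5, a T-box factor of the atria, was higher in both (1.49 and 1.68). Of 8 tested genes for natriuretic peptide processing and receptors, Npr3, the clearance receptor, was higher in both (1.96 and 1.93), and Npr1, a receptor of both peptides, passed in ND5 (0.67) and not in ND6 (0.40), a difference of 0.27 that was not called. Without non-exercised ND5 replicate 5, 6 of the 10 atrial genes were called in ND5, and without non-exercised ND6 replicate 1, 5 of 10 in ND6. In these fits Sln (adjusted p = 0.0534 and 0.0535), Kcna5 (0.0996 and 0.0966) and Tbx5 (0.0776 and 0.0994) were no longer called, and Pam was (0.0342 and 0.0320). Npr3 stayed called in ND5 (0.0414) and not in ND6 (0.0832), and Npr1 was not called in ND5 (0.26, adjusted p = 0.199).

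Markers of other cell types also differed from CO1. In ND5, 4 of 5 adipocyte, 5 of 5 red blood cell, 5 of 5 fibroblast matrix, 3 of 4 smooth muscle, 4 of 5 epicardium and mesothelium, 3 of 5 lymphocyte and 4 of 6 sinoatrial node genes were higher. In ND6 the counts were 4, 5, 4, 1, 2, 0 and 3 in the same order of lists. Summed adipocyte genes ran from 13.3 to 1234 CPM in ND5, 20.03 to 527 CPM in ND6 and 16.8 to 121.1 CPM in CO1 hearts. Summed red blood cell genes ran from 1943 to 116141 CPM in ND5, 2043 to 131864 CPM in ND6 and 774 to 11566 CPM in CO1. Summed smooth muscle genes ran from 74.5 to 9322 CPM in ND5, 125 to 1655 CPM in ND6 and 66.04 to 1002 CPM in CO1. Summed fibroblast matrix genes ran from 477 to 2873 CPM in ND5, 493 to 1379.8 CPM in ND6 and 407 to 923 CPM in CO1. Of 9 tested ventricular stress genes, 2 were higher in each strain. Of 4 ventricular genes 0 were called, and their sum ran from 44.6 to 10392 CPM in ND5, 39.8 to 9732 CPM in ND6 and 4759 to 10015 CPM in CO1. Scgb1a1, an airway gene, stood at 810.2 CPM in exercised ND5 replicate 2 and at no more than 1.01 CPM elsewhere. Without non-exercised ND5 replicate 5, the counts in ND5 were 3 of 5 adipocyte, 0 of 5 red blood cell, 4 of 5 fibroblast matrix, 0 of 4 smooth muscle, 3 of 5 epicardium and mesothelium, 0 of 5 lymphocyte and 2 of 6 sinoatrial node genes. Without non-exercised ND6 replicate 1, those in ND6 were 2, 5, 4, 0, 0, 0 and 2 in the same order. The part of these cell types in the members' differences was not tested.

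ANT1 hearts were also set against the mean of the 3 mtDNA strains. In exercised hearts 0 of 9 members were called against a background of 4.78%, and in non-exercised hearts 0 of 9 against 0.916%. Nppb was the member with the smallest p in both, with a log2 difference of 1.14 ± 0.53 in exercised hearts (adjusted p = 0.225) and 1.36 ± 0.53 in non-exercised hearts (adjusted p = 0.274). At an unadjusted p under 0.05, 1 of 9 members passed in each, Nppb. The share of all genes under that unadjusted threshold is not given here, so such counts in this paragraph are not read as results. DESeq2 called 0 members in both. In ANT1 minus ND5, 0 of 9 members were called (background 18.1%), and in ANT1 minus ND6 0 of 9 (background 7.69%). Nppb stood at 1.23 ± 0.50 (adjusted p = 0.0737) and 1.03 ± 0.50 (adjusted p = 0.172) there, and it was the only member with an unadjusted p under 0.05. DESeq2 called it in ANT1 minus ND5 (adjusted p = 0.0481). In ND5 minus ND6, 0 of 9 members were called and 1 gene of all those tested (0.00636%). DESeq2 called 0 members there as well, and 0 had an unadjusted p under 0.05.

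Training was tested strain by strain, as the average of 4 strains, and jointly for unequal effects among them. In all of these 0 members and 0 of 15723 genes were called (0.00% background) by edgeR, and 0 members had an unadjusted p under 0.05. DESeq2 called 0 members as well. The log2 difference of Myl7, exercised minus non-exercised, was 0.81 ± 1.71 for ANT1, 0.50 ± 1.70 for ND5, 1.01 ± 1.71 for ND6 and 3.81 ± 1.92 for CO1 (SE, 6 hearts an arm). Limma voom with sample weights called 6 members, all higher in exercised ND6 hearts, together with 3830 genes in all. These were Myl7 (5.08), Bmp10 (7.07), Dkk3 (4.31), Kcnj3 (1.45), Kcnj5 (1.06) and Fgf12 (4.61), while edgeR gave -0.57 for Bmp10 in the same comparison. The exercised ND6 group is the one without a heart below the Myl7 gap.

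The soleus, a slow muscle of the lower leg from the same 4 strains, gave a level for tissue without atrium (n = 48 libraries, 10.21 to 20.75 M counts). Myl7, Bmp10 and Kcnj5 had at most 1 count in any soleus library, Nppa at most 3, Fgf12 at most 5, Nppb at most 7 and Kcnj3 at most 18. With totals of this size, 3 counts correspond to 0.145 to 0.294 CPM, and this covers counting error only. Dkk3 had 3 to 149 counts. Myl4, which skeletal muscle also uses before birth, was the exception with 64 to 3821 counts, or 4.22 to 295.8 CPM. Soleus CPM were taken per total counts, without the TMM scaling of the heart values. The soleus values of Myl4 lie within its range in hearts, so a low Myl4 level alone does not separate both tissues.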

How the data were processed

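Polyadenylated RNA of heart and soleus was read in pairs on 3 flowcell lanes, per the labels' protocols. The submitters' processing notes name STAR 2.5.2b, RSEM 1.2.28 and mm10. Strand handling is not stated there or in the labels, so reads of overlapping genes on opposite strands cannot be told apart. The authors deposited expected counts (RSEM estimates, rounded here) and FPKM values. The FPKM served for levels per length.

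Columns were matched to samples by mouse code. In the count files 24 columns matched no title and were not used, and 48 over all files, so the B6 strain is not analysed here. Replicate numbers are names only. CPM used TMM scaling in hearts and the unscaled total counts in soleus. The 48 hearts (19.65 to 26.51 M counts) entered 1 edgeR 4.0.16 quasi-likelihood fit with group means (R 4.3.3), after filterByExpr, with Benjamini-Hochberg adjustment over 15723 genes and calls at an adjusted p under 0.05. The fit was tried on simulated data in which all genes shared a common spread. That trial says nothing about genes that divide the hearts as the members do. Alternatives were DESeq2 1.42.0, its size factors, no filter, Myl7 as a covariate, limma 3.58.1 voom with sample weights, and each heart left out. Genes most like Myl7 were the 10 highest and 5 lowest by Spearman's rho among those whose mean log2 CPM reached 1, of which 1 is not reported here. The members and lists were chosen with earlier results of these data known. The limit given for the soleus covers counting error only. The standard errors come from the edgeR fit and include the spread among hearts of a group.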

Additional observations from a re-analysis of the deposited data

Results flagged for a closer look

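In groups of 6 hearts, 16 of 72 tests of a single high or low library (8 groups by 9 genes) exceeded Dixon's critical value. Chance flags about 1 in 20 groups, and the members rise and fall together, so these are not 16 separate events. All values are log2 CPM.

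Exercised CO1 replicate 2 stood far above the other 5 of its group in 7 members. It had 9.05 for Myl7, 10.27 for Myl4, 12.57 for Nppa, 10.54 for Bmp10, 8.82 for Dkk3, 7.78 for Kcnj3 and 4.27 for Fgf12. Non-exercised CO1 replicate 1 did so in 4 members, with 4.99 for Myl7, 6.49 for Myl4, 7.23 for Bmp10 and 5.01 for Dkk3.

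Exercised ND6 replicate 6 stood below the other 5 of its group in 4 members, with 7.88 for Myl4, 8.78 for Nppa, 4.72 for Nppb and 2.01 for Fgf12. Exercised ANT1 replicate 2 stood below the other 5 in Nppb, at 3.6, the lowest value of that group.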

How the results depend on the processing

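With DESeq2 size factors and without the filter, all 14 counts of called members stayed within 1.5 times of the reported ones. DESeq2 called 1 member in ANT1 minus ND5 (Nppb 1.24, adjusted p = 0.0481) and 6 in ANT1 minus CO1. Limma voom with sample weights called 1 in ANT1 minus ND6 (Kcnj3, -1.11, adjusted p = 0.0233), 0 in ANT1 minus CO1, 0 in ND5 minus CO1 and 6 in the training of ND6. Apart from voom in ND6 training, calls over all genes by DESeq2 and voom are not given here. With Myl7 as a covariate 0 were called in ND5 minus CO1 and in ND6 minus CO1. In ANT1 minus CO1 it called 2, and its calls over all genes there are not given here. Among members called in the reported fit, that covariate turned round the log2 difference of Fgf12 in ANT1 minus CO1 (-0.13). Among those not called there it also did so for Myl4 (-0.38), Nppa (-1.02), Bmp10 (-0.91), Kcnj3 (-0.64) and Kcnj5 (-0.23). In ND5 minus CO1 it did so for Myl4 (-0.29), Nppa (-1.83), Dkk3 (-0.14), Kcnj3 (-0.44), Kcnj5 (-0.027) and Fgf12 (-0.12). In ND6 minus CO1 it did so for Myl4 (-0.28), Nppa (-1.51), Dkk3 (-0.34), Kcnj3 (-0.61), Kcnj5 (-0.22) and Fgf12 (-0.26). Bmp10, not called in either, turned round to -1.22 and -1.76. Myl7 is itself a member, so adjusting for it takes out much of the shared difference by design. The cause was not tested.

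Leaving out each heart in turn gave 1 to 7 called members in ANT1 minus CO1, 4 to 8 in ND5 minus CO1 and 3 to 8 in ND6 minus CO1. In ANT1 minus ND5 it gave 0 to 1 (Nppb 1.36, adjusted p = 0.0455, without exercised ANT1 replicate 2). Calls over all genes are given above only without non-exercised ND5 replicate 5 and without non-exercised ND6 replicate 1. The counts of the other fits have no background beside them. In ANT1 minus CO1 the call of Myl7 was lost (adjusted p 0.0504 to 0.0541) without exercised ANT1 replicate 1, non-exercised ANT1 replicates 3 and 6, exercised CO1 replicates 1, 3 and 6, or non-exercised CO1 replicates 2, 3, 4 and 5. That of Dkk3 was lost in 16 fits (0.0503 to 0.0800), those 10 and those without exercised ANT1 replicates 4 and 6, exercised CO1 replicates 4 and 5, non-exercised CO1 replicate 6 or exercised ND6 replicate 5. Other fits of ANT1 minus CO1 gained calls, for Myl4 and Nppa in 14 each, Nppb in 3, and Bmp10 and Kcnj3 in 1 each. In ND5 minus CO1, Nppa was lost in 13 fits (0.0506 to 0.0744), Kcnj3 in 12 (0.0502 to 0.0896) and Kcnj5 in 4 (0.0574 to 0.0773). All 3 were lost without exercised ND5 replicates 2, 3 and 5 or non-exercised ND5 replicate 2, and Nppa and Kcnj3 also without non-exercised ND5 replicates 5 and 6 or exercised CO1 replicates 1, 3, 4 and 6. Nppa was further lost without non-exercised CO1 replicates 2, 3 and 5, and Kcnj3 without non-exercised CO1 replicates 3 and 4. Without non-exercised ND6 replicate 1, ND6 minus CO1 lost Nppa (3.02, adjusted p = 0.0778), Dkk3 (3.57, 0.0530), Kcnj3 (1.31, 0.0906) and Kcnj5 (0.875, 0.0895). Without non-exercised ND6 replicate 3 it lost Kcnj3 (0.0564) and Kcnj5 (0.0687), and without exercised CO1 replicate 4 Kcnj5 (0.0522). Bmp10 gained a call in 2 fits of ND5 minus CO1 and in 2 of ND6 minus CO1. No paired analysis was possible because the replicate numbers follow the order of the samples and the labels tie no mice together. Fgf12 and Bmp10 are limited by depth in the low hearts, where single counts set the level.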
